A study of Mus musculus with 8 samples.

Results

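Axon guidance ligands and receptors were followed across 3 populations of sorted mouse islet cells. The genes were found by name as semaphorins (Sema), plexins (Plxn), neuropilins (Nrp), ephrins (Efna, Efnb), Eph receptors (Epha, Ephb), netrins (Ntn), Unc5 receptors, Slits and Robos. The table of 46959 entries held 72 such symbols, and 39 of them had at least 0.5 RPKM (reads per kilobase of exon, scaled to the depth of the library) in at least 2 of the 8 libraries. Of all entries in the table, 15228 reached that level. One of the 39, Unc50, shares only the start of its name with the Unc5 receptors and encodes an unrelated membrane protein, which leaves 38 genes of the guidance families. Just inside the level were Sema3f and Ntn1, whose second highest library had 0.533 and 0.564 RPKM, and just outside were Sema6c and Nrp2, at 0.496 and 0.467 RPKM.

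Islets came from adult mice with 3 transgenes: Ins1-H2b-mCherry, Gcg-cre and a floxed YFP allele. The first is a red nuclear reporter driven by an insulin promoter, and the other two leave a lasting YFP label in cells that are, or descend from, cells with glucagon promoter activity. Transdifferentiated cells (2 libraries, 1 male and 1 female) carried both marks and were taken by the submitters as beta cells that had been alpha cells. Alpha cells (3 libraries, 2 male and 1 female) were sorted by the YFP mark and beta cells (3 libraries, 1 male and 2 female) by the mCherry mark. Each library pooled islets of 10 to 12 animals, cultured overnight before sorting, and the design text also mentions pools of bitransgenic females without naming their libraries. Titles carry p8 for transdifferentiated, p7 for alpha and p6 for beta libraries, and 4 of the 6 alpha and beta titles also a letter b. Alpha replicates 1 and 2 share the leading title number 9 and beta replicates 1 and 2 the number 12, and each such pair differs in the letter b. The sources used here explain none of these marks and do not say whether libraries of 1 number came from 1 pool of islets; they were counted as separate libraries. The p numbers cannot be told apart from the cell groups, and p-values measure the spread between these libraries, which may in part be technical.

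The sorted cells were checked by marker genes. The summed level of 8 beta cell markers, among them Ins1, Ins2 and Mafa, was 108859 and 118215 RPKM in the transdifferentiated libraries, 1073 to 1402 RPKM in alpha and 149425 to 202612 RPKM in beta libraries. Gcg, which encodes glucagon and defines alpha cells, had 19374 and 19104 RPKM in the transdifferentiated libraries, 170137 to 196491 RPKM in alpha and 478 to 1773 RPKM in beta libraries. The sum of 8 acinar cell markers was uneven within groups. It was 919 and 319 RPKM in transdifferentiated, 41.6, 2550 and 623 RPKM in alpha and 120, 3500 and 1636 RPKM in beta libraries. Among alpha and among beta libraries it was lowest in replicate 1, whose title lacks the letter b. The part of acinar cells in the results was not tested. The transdifferentiated libraries stood apart in depth, with 1244232 and 2167334 reads recovered from the steps of the RPKM values, against 12911924 to 21395333 in the other 6. A single read of a 2 kb gene therefore gave 0.402 and 0.231 RPKM there, and 0.0234 to 0.0387 RPKM elsewhere. The 39 genes rested on 2 to 780 reads each in transdifferentiated replicate 1 (median 20) and on 2 to 1207 reads in replicate 2 (median 39).

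Axon guidance proteins were first known for steering growing nerve fibres. Secreted or membrane-bound ligands bind receptors on a neighbouring or passing cell, and the receptors act on the cytoskeleton and on adhesion. Semaphorins bind plexins, secreted class 3 semaphorins mostly through neuropilins, ephrins bind Eph receptor kinases at cell contacts and can signal back into the cell that carries them, netrins bind Dcc and Unc5 receptors, and Slits bind Robos. In mouse islets, signalling between ephrin-A and EphA proteins of adjoining beta cells is known to bear on insulin secretion, and Robo receptors in beta cells on the arrangement of the islet.

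The promoters of 4 of the genes are shown as examples. The netrin gene Ntn4 and the ephrin gene Efnb1 were high in alpha cells. Of the Unc5 receptor genes, Unc5b was high in beta and transdifferentiated cells and Unc5c highest in transdifferentiated cells. Each promoter is the 250 bases before the start of transcription in RefSeq (build GRCm38.p6), written 5′ to 3′ on the gene's own strand. Capitals mark the MAF half-site TGCTGAC, the only searched motif found in the 4 windows.
Ntn4 (chr10:93640799-93641048, plus strand): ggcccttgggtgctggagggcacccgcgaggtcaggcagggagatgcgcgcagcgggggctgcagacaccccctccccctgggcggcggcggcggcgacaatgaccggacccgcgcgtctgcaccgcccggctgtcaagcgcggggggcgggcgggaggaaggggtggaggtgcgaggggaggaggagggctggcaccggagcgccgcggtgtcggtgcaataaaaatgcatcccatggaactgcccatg
Unc5b (chr10:60831582-60831831, minus strand): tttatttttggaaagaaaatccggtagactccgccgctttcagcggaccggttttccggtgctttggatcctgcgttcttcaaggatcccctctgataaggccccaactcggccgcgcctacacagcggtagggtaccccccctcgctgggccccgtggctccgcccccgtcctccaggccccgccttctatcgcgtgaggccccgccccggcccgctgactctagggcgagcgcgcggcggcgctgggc
Unc5c (chr3:141465314-141465563, plus strand): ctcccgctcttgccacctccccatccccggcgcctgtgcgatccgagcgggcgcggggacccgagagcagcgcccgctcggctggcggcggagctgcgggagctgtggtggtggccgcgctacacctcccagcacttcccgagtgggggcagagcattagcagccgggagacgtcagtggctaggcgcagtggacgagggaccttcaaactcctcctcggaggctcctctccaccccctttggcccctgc
Efnb1 (chrX:99135811-99136060, plus strand): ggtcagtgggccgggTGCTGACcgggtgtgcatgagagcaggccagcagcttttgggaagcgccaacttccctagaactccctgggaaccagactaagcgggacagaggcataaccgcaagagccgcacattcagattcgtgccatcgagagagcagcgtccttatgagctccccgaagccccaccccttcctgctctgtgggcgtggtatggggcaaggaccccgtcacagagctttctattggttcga
The windows of Ntn4, Unc5b and Unc5c held 26, 27 and 23 CpG dinucleotides and that of Efnb1 held 13, against a median of 6 over the 32851 promoters of the table. RefSeq promoters were matched by symbol for 33 of the 39 genes (47 windows, median 16 CpG). On either strand, TGCTGAC, the half-site of MAF factors, was in 2 of the 47 windows and in 3.81% of all promoters. The homeodomain motif TAATTA was in 1 of the 47 and in 4.84% of all. The forkhead motif TGTTTAC was in 0 of the 47 and in 3.17% of all. A match describes letters in these windows and no binding.

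Set against beta cells, transdifferentiated cells had mostly higher levels of the guidance genes that differed. Of the 39 genes, 10 rose and 1 fell (limma, adjusted p under 0.05), and 28 did not pass. Over all 15228 genes tested, 10.9% were called, 8.15% higher and 2.72% lower. The genes that rose were Ntn4, Unc5c, Unc5d, Sema3e, Sema4f, Sema4g, Sema6b, Ephb2, Efnb1 and Efnb3, and the gene that fell was Robo1. Limma voom, which weights each value by its read depth, also called 9 of these 11 and missed Sema6b and Efnb1. On simulated data the limma fit alone called too many unchanged genes in comparisons with transdifferentiated cells. The median log2 fold change was 0.43 over the 39 genes and 0.09 over all genes. Median-ratio scaling and quantile normalization moved the median of all genes to -0.04 and -0.03, with 9 and 6 of the 39 called higher and 1 called lower under each. Over all genes these scalings gave 5.78% higher and 5.65% lower, and 4.35% higher and 3.84% lower. Unc5d and Sema3f reached 0.5 RPKM only in transdifferentiated libraries, so that they could enter the set of 39 only by being high there. Ephb2, Sema4f, Sema4g, Sema6a, Efnb2 and Nrp1 reached it in no beta library. Unc5b, Sema3g and Ntn1 reached it in no alpha library. These genes entered only through the other groups, and their p-values against the group without such a library are not independent of that entry. In a fit of the transdifferentiated and beta libraries alone, limma called 0 of the 39 genes and 0 of all genes against beta cells (15 of the 39 had an unadjusted p under 0.05), and without the filter on low values it called 5 of the 39, losing Efnb3, Ephb2, Robo1, Sema3e, Sema4f and Sema6b. Quantile normalization lost Efnb1, Efnb3, Sema4f and Sema6b, and the letter b as a term in place of sex lost Sema6b. With libraries of 1 title number averaged, which leaves 2 libraries a group, 2 of the 11 calls passed, those of Ntn4 and Unc5c.

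Set against alpha cells, from which they were taken to descend, transdifferentiated cells differed in both directions: 9 genes rose and 7 fell, with 23 not passing, against 20.6% higher and 7.01% lower over all genes (27.6% called in all). Unc5b, Unc5c, Unc5d, Robo1, Plxnb2, Sema3f, Efna5, Epha1 and Unc50 rose, and Ntn4, Sema3e, Sema4f, Efnb1, Efnb2, Nrp1 and Plxna1 fell. Of those that rose, Unc5d and Sema3f could enter the set only by being high in transdifferentiated libraries, so their calls are no independent support. Limma voom also called 8 of the 16, namely Unc5b, Unc5c, Unc5d, Robo1, Plxnb2 and Sema3f as higher and Sema4f and Efnb2 as lower, and it called Sema3g higher, which limma did not. The median log2 fold change was 0.17 over the 39 genes and 0.15 over all genes. Median-ratio scaling moved the median of all genes to -0.05 and the split of the 39 to 5 higher and 9 lower, and quantile normalization moved it to -0.04 and the split to 5 higher and 10 lower. Over all genes these scalings gave 11.2% higher and 11.4% lower, and 12.2% higher and 11.9% lower. The calls of Efna5, Epha1, Nrp1 and Plxna1 were lost with the letter b as a term in place of sex. Those of Efna5, Epha1, Nrp1, Plxna1, Sema3f and Unc50 were lost with only these groups in the fit, and those of Epha1, Nrp1 and Plxna1 without the filter on low values. Median-ratio scaling lost Efna5, Epha1, Sema3f and Unc50, and quantile normalization Efna5, Epha1, Plxnb2 and Unc50. Both comparisons use the same 2 transdifferentiated libraries, and each shares its control group with the comparison of alpha with beta cells.

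Alpha and beta cells differed in 22 of the 39 genes, 15 higher and 7 lower in alpha cells, against 16% higher and 23.5% lower over all genes (39.5% called in all). Limma voom also called these 22. Higher in alpha cells were Ntn4, Unc5c, Sema3e, Sema4a, Sema4f, Sema4g, Sema6d, Nrp1, Plxna1, Efna1, Efnb1, Efnb2, Efnb3, Epha7 and Ephb2. Lower were Unc5b, Robo1, Sema3c, Sema3g, Plxnb2, Efna5 and Unc50. The median log2 fold change was 0.25 over the 39 genes and -0.01 over all genes. Without the filter on low values the calls of Efna5, Epha7, Plxnb2, Sema3c and Sema4a were lost, without a trend in eBayes that of Plxnb2, and with quantile normalization those of Plxnb2 and Unc50. Median-ratio scaling gave 20.1% higher and 19.9% lower over all genes, and quantile normalization 18.8% and 19.3%.

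**Figure D1:**
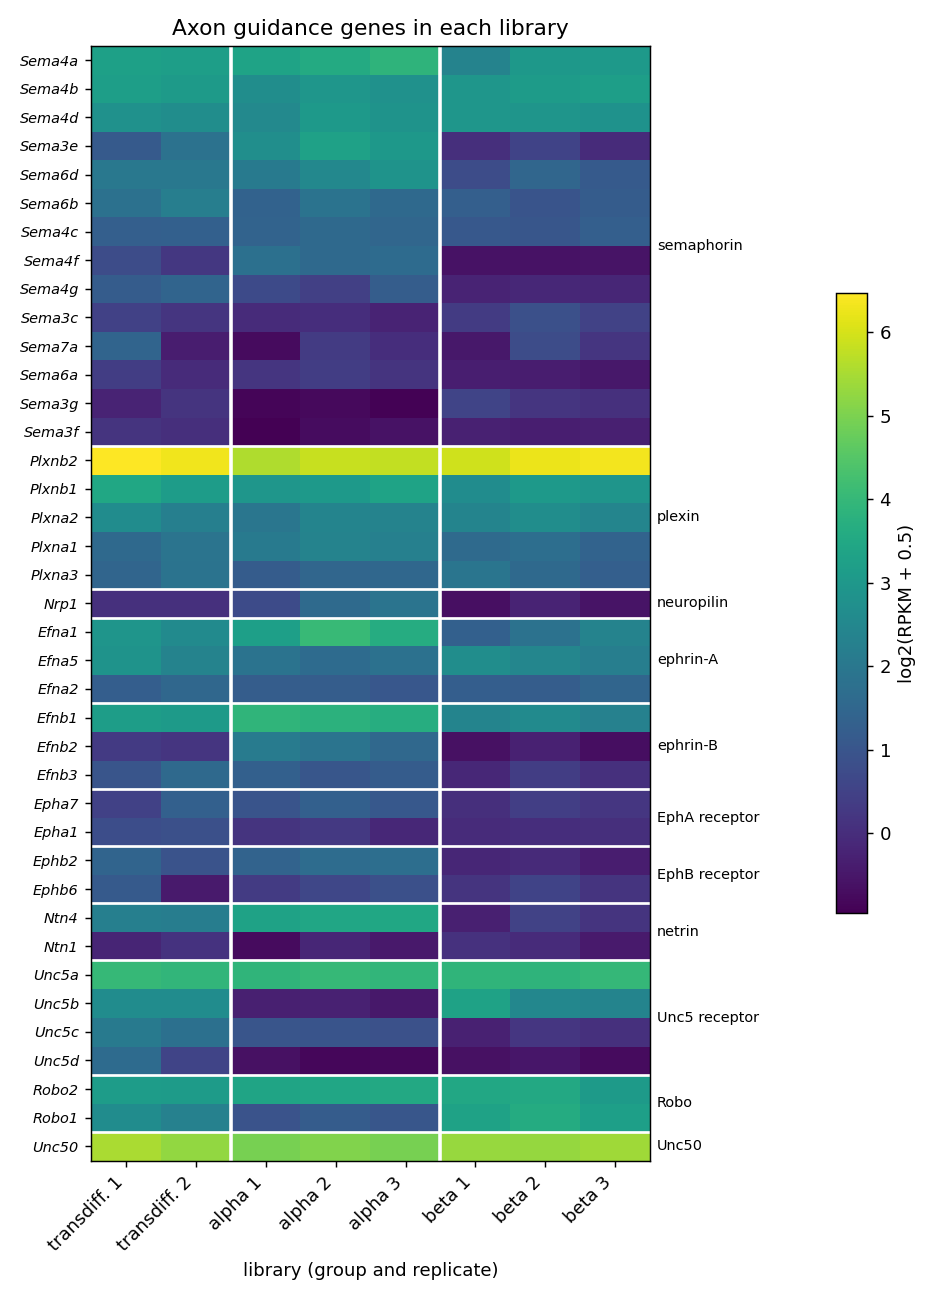
Level of the 39 genes in each library as log2(RPKM + 0.5), with libraries on the x axis (transdifferentiated, alpha and beta replicates) and genes on the y axis, grouped by family. Plxnb2 is the brightest row in all 8 libraries, Unc5b is dark in the 3 alpha libraries, and Unc5d is above its alpha and beta levels in both transdifferentiated libraries.

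**Figure D2:**
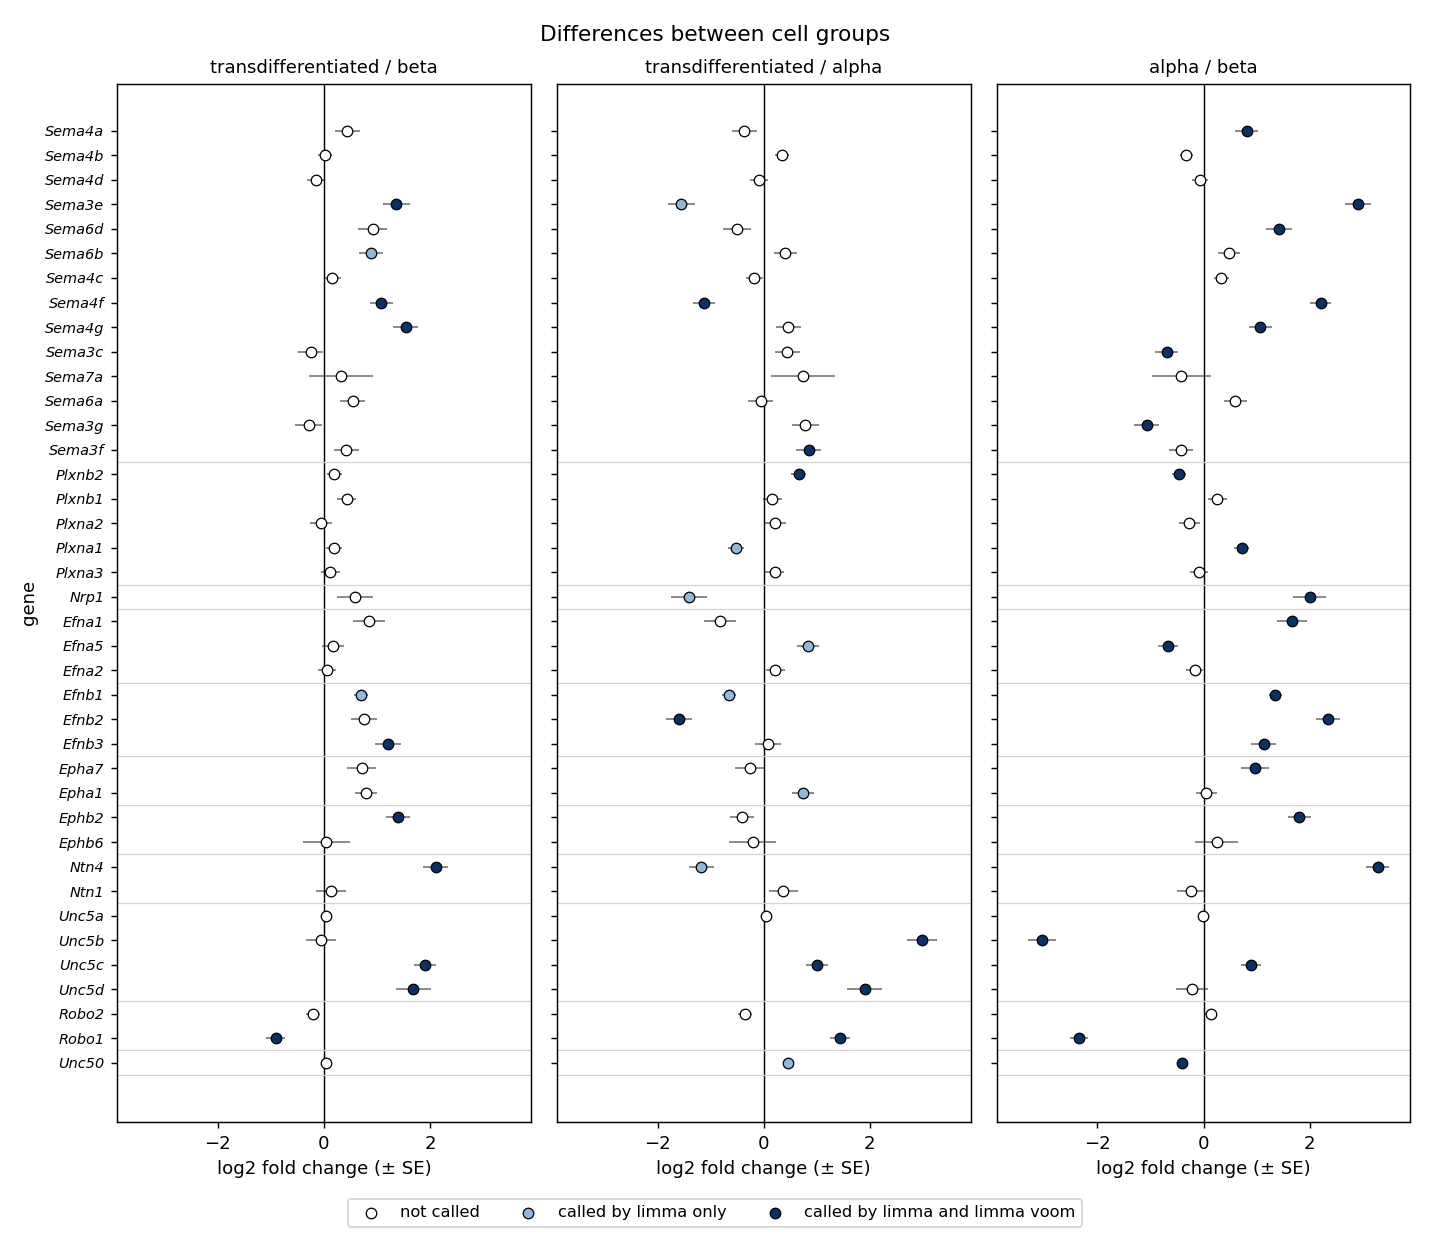
Log2 fold change on the log2(RPKM + 0.5) scale with its standard error for each gene in the 3 comparisons; white points did not pass limma, light blue points passed limma but not limma voom, and dark blue points passed both. Against beta cells 9 points are dark blue, against alpha cells 8, and between alpha and beta cells 22.

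Netrins are secreted ligands that attract through Dcc and repel through Unc5 receptors, though binding of netrin 4 to these receptors was not tested. Ntn4 (chromosome 10, 93640681 to 93747207, GENCODE M21 on GRCm38) encodes netrin 4, a basement membrane netrin that binds laminin. It was at 4.30 and 4.07 RPKM in transdifferentiated libraries, at 9.40, 10.4 and 10.5 RPKM in alpha and at 0.315, 0.912 and 0.615 RPKM in beta libraries. The groups did not overlap, and the transdifferentiated libraries lay between the others, at 681% of the beta mean and 41.4% of the alpha mean. Its log2 fold change was 2.11 against beta cells (SE 0.23, limma adjusted p = 0.00581) and -1.17 against alpha cells (SE 0.23, adjusted p = 0.0111). Between alpha and beta cells it was 3.28 (SE 0.22, adjusted p = 6.17e-05), the largest positive value of the 39 genes in that comparison. The difference from alpha cells did not pass limma voom (adjusted p = 0.0658), nor limma without alpha replicate 3 (adjusted p = 0.0597) or without transdifferentiated replicate 1 (adjusted p = 0.0518). The other netrin gene of the set, Ntn1, had 0.384 and 0.588 RPKM in transdifferentiated, 0.0987, 0.403 and 0.237 RPKM in alpha and 0.564, 0.476 and 0.244 RPKM in beta libraries. Its groups overlapped and no comparison passed (limma adjusted p of 0.36 to 0.773).

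Unc5 receptors mediate repulsion by netrins and can signal cell death when no ligand is bound. Unc5b, Unc5c and Unc5d were each called in at least 1 comparison and Unc5a in none. Of all genes, 39.5% were called between alpha and beta cells alone, and nothing particular to the family is read from these calls. Unc5b (chromosome 10, 60762593 to 60831581) had 5.77 and 5.75 RPKM in transdifferentiated libraries, 0.304, 0.318 and 0.218 RPKM in alpha libraries and 9.41, 5.05 and 4.75 RPKM in beta libraries. The transdifferentiated values lay inside the beta range and above every alpha library. Against alpha cells the log2 fold change was 2.99 (SE 0.28, limma adjusted p = 0.000585, and 0.00906 at most over 19 alternatives) and -0.06 against beta cells (SE 0.28, adjusted p = 0.909). Alpha against beta cells gave -3.05 (SE 0.26, adjusted p = 0.000188). The transdifferentiated mean was 89.9% of the beta mean, from 42 and 73 reads in the 2 libraries.

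Unc5c (chromosome 3, 141465216 to 141834924) was highest in transdifferentiated cells, at 3.70 and 2.94 RPKM, against 1.5, 1.45 and 1.34 RPKM in alpha and 0.325, 0.652 and 0.543 RPKM in beta libraries. These values rested on 88 and 122 reads in the transdifferentiated libraries, and no group overlapped another. This gave a log2 fold change of 1.91 against beta cells (SE 0.20, limma adjusted p = 0.0055) and 1.0 against alpha cells (SE 0.20, adjusted p = 0.0119). Alpha cells were above beta cells by 0.90 (SE 0.19, adjusted p = 0.00944). Without transdifferentiated replicate 1 the difference from alpha cells did not pass (adjusted p = 0.0631), and without alpha replicate 3 or beta replicate 3 the one between alpha and beta cells did not (adjusted p = 0.0709 and 0.0673).

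Unc5d (chromosome 8, 28646717 to 29219636) had 2.61 and 0.982 RPKM in transdifferentiated libraries, against 0.148, 0.0584 and 0.0716 RPKM in alpha and 0.144, 0.199 and 0.102 RPKM in beta libraries. Both transdifferentiated libraries were above all 6 others, though they differed from each other, and they held 29 and 19 reads against 7 to 38 in the far deeper alpha and beta libraries. Log2 fold changes were 1.90 against alpha cells (SE 0.33, limma adjusted p = 0.00644) and 1.69 against beta cells (SE 0.33, adjusted p = 0.026), and limma voom passed both (adjusted p = 0.002 and 0.0144). Alpha and beta cells did not differ past the threshold (adjusted p = 0.597). The call against beta cells was lost without transdifferentiated replicate 1 (adjusted p = 0.0643), beta replicate 1, 2 or 3 (0.0738, 0.055 and 0.113) or alpha replicate 2 (0.052). Unc5d reached 0.5 RPKM only in transdifferentiated libraries, so it could enter the set only by being high there. Its p-values against the other groups are therefore no independent support. Unc5c and Unc5d were the 2 of the 39 genes called above both alpha and beta cells, a class that held 2.21% of all genes. Nothing is read from this count. All 5 delta cell markers were above 0 in every library. Their sum was 3121 and 2987 RPKM in transdifferentiated, 1386 to 3215 RPKM in alpha and 327 to 907 RPKM in beta libraries. Ppy and Pyy, markers of pancreatic polypeptide (PP) cells, were also high in both groups with the YFP mark: the sum over 3 PP markers was 11439 and 8249 RPKM in transdifferentiated, 7960 to 13022 RPKM in alpha and 589 to 1274 RPKM in beta libraries, with Vip at 0 in both transdifferentiated libraries. The part of either cell type in the results was not tested. In bulk libraries, more cells with a transcript and more transcript per cell cannot be told apart.

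Unc5a (chromosome 13, 54949411 to 55006018) had the smallest ratio between its highest and lowest library of the 39 genes and was the most abundant receptor of the family. It had 15.6 and 14.8 RPKM in transdifferentiated, 14.5, 15.7 and 14.7 RPKM in alpha and 14.6, 14.2 and 15.5 RPKM in beta libraries, a ratio of 1.10 between the highest and the lowest library. All groups overlapped, and the log2 fold changes of transdifferentiated cells were 0.03 against beta and 0.03 against alpha cells (SE 0.09 for both, limma adjusted p = 0.832 and 0.805). Dcc, the attracting netrin receptor, was below the level at which genes were tested.

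**Figure D3:**
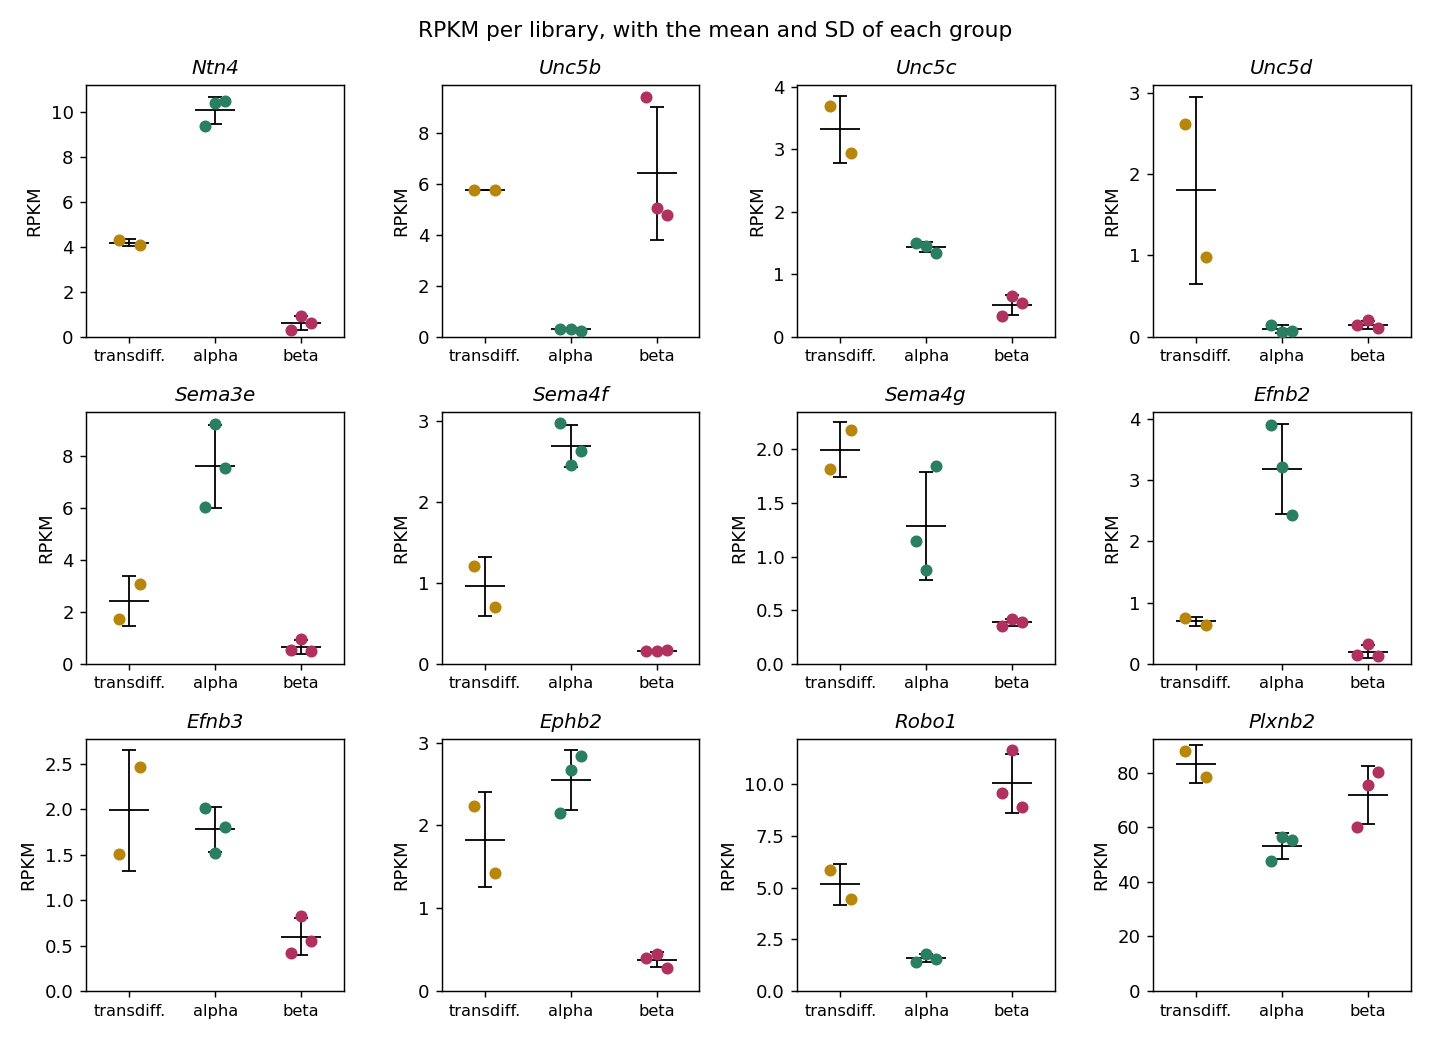
RPKM in each library for 12 of the genes, with transdifferentiated, alpha and beta groups on the x axis, a point for each library and a bar for the group mean with its SD (n = 2, 3 and 3). Unc5b in transdifferentiated cells sits at the beta level, Ntn4 between the groups, and Unc5c and Unc5d above both.

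Robo receptors bind Slits and mediate repulsion. Robo1 (chromosome 16, 72308306 to 73046095) had 5.84 and 4.45 RPKM in transdifferentiated libraries, 1.41, 1.79 and 1.54 RPKM in alpha and 9.57, 11.7 and 8.90 RPKM in beta libraries. The transdifferentiated libraries lay between the others without overlap, at 51.3% of the beta mean and 326% of the alpha mean. Robo1 was the only one of the 39 genes called lower than in beta cells (log2 fold change -0.91, SE 0.18, limma adjusted p = 0.0274). It was called higher than in alpha cells under all 19 alternatives (1.44, SE 0.18, adjusted p = 0.00183), and lower in alpha than in beta cells (-2.34, SE 0.17, adjusted p = 8.6e-05). The call against beta cells was lost without transdifferentiated replicate 2 (adjusted p = 0.0857), without beta replicate 1, 2 or 3 (0.0788, 0.0686 and 0.0714) and without alpha replicate 2 or 3 (0.0529 and 0.055). Robo2, which encodes the related receptor, had 8.37 and 8.13 RPKM in transdifferentiated, 9.99, 10.3 and 10.97 RPKM in alpha and 10.7, 11.1 and 7.96 RPKM in beta libraries. None of its comparisons passed (limma adjusted p of 0.0817 to 0.369). The Slit genes, which encode the ligands, were all under the level, and the highest library of the 3 was Slit3 in transdifferentiated replicate 1 at 0.132 RPKM.

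Semaphorins were the largest family, with 14 of 20 symbols at the level. Against beta cells 4 rose, and 10 did not pass; against alpha cells 1 rose, 2 fell and 11 did not pass; and 5 were higher and 2 lower in alpha than in beta cells. The shares over all genes were 8.15% higher and 2.72% lower against beta cells, 20.6% and 7.01% against alpha cells, and 16% and 23.5% between alpha and beta cells, and nothing particular to the family is read from these counts. Sema3e, a secreted semaphorin that binds plexin D1 without a neuropilin, had 1.73 and 3.08 RPKM in transdifferentiated, 6.02, 9.23 and 7.52 RPKM in alpha and 0.531, 0.961 and 0.473 RPKM in beta libraries. The transdifferentiated libraries were above every beta library and below every alpha library. The log2 fold change was 1.37 against beta cells (SE 0.26, limma adjusted p = 0.0254) and -1.55 against alpha cells (SE 0.26, adjusted p = 0.00603, and 0.0520 by limma voom). It was 2.92 between alpha and beta cells (SE 0.24, adjusted p = 0.000164). The call against beta cells was lost without transdifferentiated replicate 2 (adjusted p = 0.0821) or beta replicate 1 or 3 (0.0751 and 0.103). Plxnd1, which encodes its receptor, was under the level, with a highest value of 0.544 RPKM in beta replicate 2.

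Sema4f and Sema4g are membrane-bound semaphorins. Sema4f had 1.22 and 0.698 RPKM in transdifferentiated, 2.97, 2.46 and 2.63 RPKM in alpha and 0.162, 0.159 and 0.171 RPKM in beta libraries, with 8 reads in each transdifferentiated library. The groups did not overlap, and limma called all 3 comparisons: 1.08 against beta cells (SE 0.21, adjusted p = 0.0263), -1.12 against alpha cells (SE 0.21, adjusted p = 0.00887) and 2.21 between alpha and beta cells (SE 0.19, adjusted p = 0.000215). Leaving out 1 library ended the call against beta cells for transdifferentiated replicate 1 (adjusted p = 0.0673), beta replicates 1, 2 and 3 (0.0716, 0.0637 and 0.114) and alpha replicates 2 and 3 (0.054 and 0.055), and the call against alpha cells for alpha replicate 3 (0.0536). Sema4g had 1.81 and 2.18 RPKM in transdifferentiated, 1.14, 0.871 and 1.85 RPKM in alpha and 0.352, 0.422 and 0.386 RPKM in beta libraries. The transdifferentiated libraries were above all beta libraries and overlapped the alpha libraries. Its log2 fold change was 1.54 against beta cells (SE 0.23, limma adjusted p = 0.0141, and 0.0533 without beta replicate 3) and 0.47 against alpha cells (SE 0.23, adjusted p = 0.175). Alpha against beta cells gave 1.07 (SE 0.21, adjusted p = 0.0074, and 0.0725 without alpha replicate 3).

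Among the other semaphorins, Sema6b, a membrane-bound ligand of A-type plexins, had 3.03 and 4.18 RPKM in transdifferentiated, 2.08, 3.15 and 2.46 RPKM in alpha and 1.94, 1.45 and 1.79 RPKM in beta libraries. It was called against beta cells (log2 fold change 0.89, SE 0.22, limma adjusted p = 0.0477), but missed the threshold in 15 of 19 alternatives, among them limma voom (adjusted p = 0.0888) and each fit that left out 1 library (0.0603 to 0.161). Sema3f, a secreted ligand of neuropilin 2, had 0.618 and 0.533 RPKM in transdifferentiated, 0.0149, 0.115 and 0.164 RPKM in alpha and 0.320, 0.288 and 0.309 RPKM in beta libraries, with 4 and 6 reads in the transdifferentiated libraries. It was called against alpha cells (0.85, SE 0.24, adjusted p = 0.0408) and lost when any 1 of the 8 libraries was left out (adjusted p of 0.0514 to 0.139). Like Unc5d, Sema3f reached 0.5 RPKM only in transdifferentiated libraries, so its p-values against the other groups are no independent support.

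Between alpha and beta cells, Sema6d and Sema4a were higher in alpha cells and Sema3g and Sema3c lower. Sema6d, another membrane-bound ligand of A-type plexins, had 3.58 and 3.54 RPKM in transdifferentiated, 3.82, 5.25 and 6.68 RPKM in alpha and 1.21, 2.31 and 1.70 RPKM in beta libraries. The alpha to beta log2 fold change was 1.42 (SE 0.25, limma adjusted p = 0.00432), and the transdifferentiated libraries, between the groups, passed against neither beta cells (0.92, adjusted p = 0.0692) nor alpha cells (-0.50, adjusted p = 0.203). Sema4a, which is also known as an immune semaphorin, had 9.07 and 8.79 RPKM in transdifferentiated, 9.80, 11.4 and 14.1 RPKM in alpha and 4.66, 7.43 and 7.65 RPKM in beta libraries. Its alpha to beta log2 fold change was 0.81 (SE 0.22, adjusted p = 0.0251, and 0.0614 and 0.191 without alpha replicates 2 and 3). The sum of 11 macrophage markers was 48.8 and 37.3 RPKM in transdifferentiated, 22.8 to 41.0 RPKM in alpha and 116 to 138 RPKM in beta libraries. Of the 11, 5 were above 0 in both transdifferentiated libraries, among them C1qa (16.2 and 17.3 RPKM), Cd68 (10.9 and 14.7 RPKM) and Cd74 (12.0 and 2.62 RPKM), and Ptprc, Adgre1 and C1qb were at 0 in both. The part of macrophages in the Sema4a values was not tested.

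Sema3g had 0.354 and 0.610 RPKM in transdifferentiated, 0.0512, 0.0821 and 0.0313 RPKM in alpha and 0.992, 0.638 and 0.553 RPKM in beta libraries. The alpha libraries held 2 to 5 reads each and lay below all others. Limma voom called it higher in transdifferentiated than in alpha cells (log2 fold change 3.16, adjusted p = 0.0142) and limma did not (0.78, SE 0.26, adjusted p = 0.0612). The alpha to beta log2 fold change was -1.07 (SE 0.24, limma adjusted p = 0.0117, and 0.0911 and 0.0585 without alpha replicate 3 and beta replicate 3). Sema3c had 0.900 and 0.646 RPKM in transdifferentiated, 0.466, 0.501 and 0.368 RPKM in alpha and 0.766, 1.32 and 0.928 RPKM in beta libraries. Its alpha to beta log2 fold change of -0.69 (SE 0.22, adjusted p = 0.0439) did not pass when any 1 alpha or beta library was left out (adjusted p of 0.0607 to 0.19). The remaining 5 semaphorins, Sema4b, Sema4c, Sema4d, Sema6a and Sema7a, passed in no limma comparison. Limma voom called Sema4b lower and Sema4c and Sema6a higher in alpha than in beta cells (adjusted p = 0.0417, 0.0463 and 0.00267), and Sema3f lower (adjusted p = 0.0475). Of these 5, Sema4b and Sema4d were the most abundant at 5.90 to 8.78 and 5.32 to 7.90 RPKM over the 8 libraries.

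Plexins are the semaphorin receptors, and B-type plexins bind class 4 semaphorins. Plxnb2 (chromosome 15, 89155549 to 89180788) was the most abundant of the 39 genes per kilobase, with 88.0 and 78.2 RPKM in transdifferentiated, 47.6, 56.5 and 55.2 RPKM in alpha and 60.0, 75.4 and 80.2 RPKM in beta libraries. Transdifferentiated libraries were above every alpha library and overlapped the beta libraries. Its log2 fold change was 0.66 against alpha cells (SE 0.14, limma adjusted p = 0.0142) and 0.20 against beta cells (SE 0.14, adjusted p = 0.381). It was -0.46 between alpha and beta cells (SE 0.13, adjusted p = 0.0289). The call against alpha cells was lost without transdifferentiated replicate 1 (adjusted p = 0.0848) and with quantile normalization (0.096). The call between alpha and beta cells was lost with quantile normalization (0.64) and without alpha replicate 1 or 2 (0.0571 for each) or beta replicate 2 or 3 (0.073 and 0.182).

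Plxna1, a receptor for secreted semaphorins held with neuropilins and for Sema6d, had 2.48 and 3.26 RPKM in transdifferentiated, 3.67, 4.62 and 4.36 RPKM in alpha and 2.56, 2.82 and 2.16 RPKM in beta libraries. Alpha cells were above beta cells by 0.72 on the log2 scale (SE 0.14, limma adjusted p = 0.00744, and 0.0599 without beta replicate 3). Its difference from alpha cells in transdifferentiated cells (-0.52, SE 0.15, adjusted p = 0.0432) failed in 13 of 19 alternatives, including limma voom (adjusted p = 0.169) and each fit that left out 1 library (0.0574 to 0.164). Gm26811 on the opposite strand overlaps 10.7% of its exon length, and the library kit did not mark strand. Plxnb1, Plxna2 and Plxna3 passed in no comparison, at 5.79 to 10.5, 3.41 to 5.96 and 1.82 to 3.30 RPKM over the 8 libraries.

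Nrp1 (chromosome 8, 128358604 to 128503363) encodes neuropilin 1, the co-receptor through which class 3 semaphorins reach plexins and which also binds VEGF. It had 0.544 and 0.547 RPKM in transdifferentiated, 1.17, 2.56 and 3.27 RPKM in alpha and 0.136, 0.364 and 0.177 RPKM in beta libraries. The transdifferentiated values rested on 4 and 7 reads and lay below all alpha and above all beta libraries. The log2 fold change was 2.0 between alpha and beta cells (SE 0.31, limma adjusted p = 0.00276) and -1.41 between transdifferentiated and alpha cells (SE 0.34, adjusted p = 0.0218). The second did not pass limma voom (adjusted p = 0.145), nor limma without transdifferentiated replicate 1 or 2 (0.054 and 0.0822) or alpha replicate 2 or 3 (0.0663 and 0.107). With the letter b as a term in place of sex it was -0.93 and did not pass (adjusted p = 0.0704). The sum of 10 endothelial markers, a cell type rich in Nrp1, was 12.0 and 5.69 RPKM in transdifferentiated, 4.55 to 7.25 RPKM in alpha and 3.31 to 5.24 RPKM in beta libraries, with 7 of the 10 above 0 in both transdifferentiated libraries. Pecam1 (0.774 and 0.815 RPKM) was above every alpha and beta library there, Cdh5 (2.82 RPKM) and Plvap (1.99 RPKM) were highest in transdifferentiated replicate 1, and Cldn5 was at 0 in both transdifferentiated libraries and in alpha replicate 1. Esam alone gave 4.24, 4.55 and 4.11 RPKM in alpha replicates 1, 2 and 3. Cdh5 (0.0389, 0.280 and 0.516 RPKM), Kdr (0.0172, 0.404 and 0.518 RPKM) and Plvap (0.115, 0.887 and 1.13 RPKM) rose over these replicates, as Nrp1 did. So did Pecam1, Tek, Tie1 and Emcn, while Esam, Flt1 and Cldn5 did not. The part of endothelial cells in the Nrp1 values was not tested.

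Ephrins of the B type are transmembrane ligands that can signal into their own cell. All 3 of their genes were called higher in alpha than in beta cells. Over all genes 16% were higher and 39.5% called in all, and nothing particular to the family is read from these calls. Efnb1 had 8.61 and 8.02 RPKM in transdifferentiated, 14.5, 13.7 and 12.2 RPKM in alpha and 4.74, 5.58 and 4.48 RPKM in beta libraries. The groups did not overlap, with log2 fold changes of 0.70 against beta cells (SE 0.13, limma adjusted p = 0.0244), -0.66 against alpha cells (SE 0.13, adjusted p = 0.0112) and 1.35 between alpha and beta cells (SE 0.12, adjusted p = 0.00023). Limma voom passed only the last of these (adjusted p = 0.0815, 0.0829 and 4.99e-05). The call against beta cells was also lost without transdifferentiated replicate 1 or 2 (0.0749 and 0.0507), beta replicate 1 or 3 (0.0753 and 0.104) or alpha replicate 2 (0.0537).

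Efnb2 had 0.743 and 0.640 RPKM in transdifferentiated, 3.9, 3.22 and 2.43 RPKM in alpha and 0.149, 0.324 and 0.129 RPKM in beta libraries. The 4 and 6 reads of the transdifferentiated libraries put it at 21.7% of the alpha mean. It fell against alpha cells under all 19 alternatives (-1.59, SE 0.24, limma adjusted p = 0.00422), was higher in alpha than in beta cells (2.34, SE 0.23, adjusted p = 0.000319), and did not pass against beta cells (0.75, SE 0.24, adjusted p = 0.09). Efnb3 had 1.51 and 2.46 RPKM in transdifferentiated, 2.02, 1.52 and 1.81 RPKM in alpha and 0.421, 0.822 and 0.548 RPKM in beta libraries. The transdifferentiated and alpha libraries overlapped (log2 fold change 0.07, SE 0.25, adjusted p = 0.859), and both were above all beta libraries. Its log2 fold change against beta cells was 1.20 (SE 0.25, adjusted p = 0.0293) and between alpha and beta cells 1.13 (SE 0.23, adjusted p = 0.00786). The first was lost without transdifferentiated replicate 2 (adjusted p = 0.0884), beta replicate 1, 2 or 3 (0.0763, 0.0528 and 0.102) or alpha replicate 2 or 3 (0.0603 and 0.055).

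Ephrins of the A type are anchored to the membrane by a lipid. Efna1 had 7.03 and 5.55 RPKM in transdifferentiated, 8.84, 16.0 and 12.0 RPKM in alpha and 1.99, 3.09 and 4.65 RPKM in beta libraries. The alpha to beta log2 fold change was 1.67 (SE 0.28, limma adjusted p = 0.00372), and the transdifferentiated libraries, between the groups, passed against neither (adjusted p = 0.113 against beta and 0.0863 against alpha cells). Efna5, the ligand studied in mouse beta cells, ran the other way, at 6.78 and 4.69 RPKM in transdifferentiated, 3.15, 2.64 and 3.03 RPKM in alpha and 5.89, 4.98 and 4.15 RPKM in beta libraries. Transdifferentiated libraries overlapped the beta range and were above all alpha libraries (log2 fold change 0.84, SE 0.21, adjusted p = 0.0235, and 0.0837 by limma voom). That call was lost with the letter b as a term (adjusted p = 0.0587), without transdifferentiated replicate 1 (adjusted p = 0.15) or alpha replicate 2 or 3 (0.0693 and 0.0789). The alpha to beta value of -0.67 (SE 0.19, adjusted p = 0.03) was lost without alpha replicate 1, 2 or 3 (0.0504, 0.0823 and 0.122) or beta replicate 1 or 2 (0.0817 and 0.0679). Efna2 stayed within 1.60 to 2.38 RPKM over the 8 libraries and passed in no comparison.

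Eph receptors are receptor tyrosine kinases. Ephb2 (chromosome 4, 136647539 to 136835988), a receptor for ephrin-B ligands, had 2.23 and 1.43 RPKM in transdifferentiated, 2.14, 2.66 and 2.84 RPKM in alpha and 0.404, 0.452 and 0.277 RPKM in beta libraries. Transdifferentiated libraries overlapped the alpha range and were above all beta libraries, at 484% of the beta mean. The log2 fold change was 1.40 against beta cells (SE 0.23, limma adjusted p = 0.0182, and 0.0572 and 0.0894 without beta replicates 1 and 3), -0.41 against alpha cells (SE 0.23, adjusted p = 0.236) and 1.80 between alpha and beta cells (SE 0.22, adjusted p = 0.00081). Ephb6, whose kinase is inactive, had 1.70 and 0.245 RPKM in transdifferentiated libraries, from 8 and 2 reads, against 0.759 to 1.30 RPKM in alpha and 0.610 to 0.941 RPKM in beta libraries, and passed in no comparison.

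Epha7 had 0.894 and 2.01 RPKM in transdifferentiated, 1.47, 1.99 and 1.63 RPKM in alpha and 0.531, 0.842 and 0.663 RPKM in beta libraries. It was higher in alpha than in beta cells (log2 fold change 0.97, SE 0.26, limma adjusted p = 0.0225), a call lost without alpha replicate 2 or 3 (0.0658 and 0.0611) or beta replicate 1 or 3 (0.063 and 0.0694). Epha1 had 1.23 and 1.29 RPKM in transdifferentiated libraries, from 6 and 11 reads, against 0.611, 0.721 and 0.415 RPKM in alpha and 0.464, 0.512 and 0.533 RPKM in beta libraries. Both transdifferentiated libraries were above all 6 others. It was called against alpha cells (0.73, SE 0.21, adjusted p = 0.0391) but failed in 15 of 19 alternatives, including limma voom (adjusted p = 0.0561) and each fit that left out 1 library (0.0585 to 0.155), and it did not pass against beta cells (0.79, SE 0.21, adjusted p = 0.0555). Of 7 duct cell markers, Spp1 had 180 and 225 RPKM in transdifferentiated, 667 to 1686 RPKM in alpha and 182 to 308 RPKM in beta libraries. The sum of the other 6 was lower in alpha libraries, at 89.6 and 100.3 RPKM in transdifferentiated, 47.3 to 55.5 RPKM in alpha and 89.8 to 101.0 RPKM in beta libraries. The part of duct cells in the ephrin and Eph levels was not tested.

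Unc50, which entered by its name, had 45.8 and 38.3 RPKM in transdifferentiated, 30.1, 32.6 and 30.1 RPKM in alpha and 39.4, 38.9 and 41.7 RPKM in beta libraries. It was lower in alpha than in beta cells (log2 fold change -0.41, SE 0.08, limma adjusted p = 0.00694, and 0.622 with quantile normalization). Against alpha cells transdifferentiated cells were higher by 0.45 (SE 0.09, adjusted p = 0.00912), which did not pass limma voom (0.0602), quantile normalization (0.234) or the fit without transdifferentiated replicate 1 (0.0643).

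The place of the transdifferentiated cells between the other groups was described on linear RPKM for the 22 genes called between alpha and beta cells, with the beta mean as 0% and the alpha mean as 100%. For the 15 genes higher in alpha cells the median place was 41.9% in replicate 1 and 42.6% in replicate 2, with 12 and 11 of the 15 between the means. For the 7 genes lower in alpha cells it was 10.4% and 17.5%, with 4 and 6 of the 7 between the means. Among the genes higher in alpha cells, Nrp1 (15.1% and 15.2%), Efnb2 (18.2% and 14.7%), Plxna1 (-1.62% and 43.9%) and Sema3e (15.5% and 35.0%) stood closest to the beta mean. Unc5c (346% and 264%) and Sema4g (158% and 199%) lay beyond the alpha mean in both libraries. Of the genes lower in alpha cells, Unc5b stood at 10.4% and 10.6% and Robo1 at 49.6% and 66.1%, while Plxnb2 lay on the far side of the beta mean (-86.1% and -33.7%). These places share the alpha and beta libraries with the choice of genes and are given without a test.

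**Figure D4:**
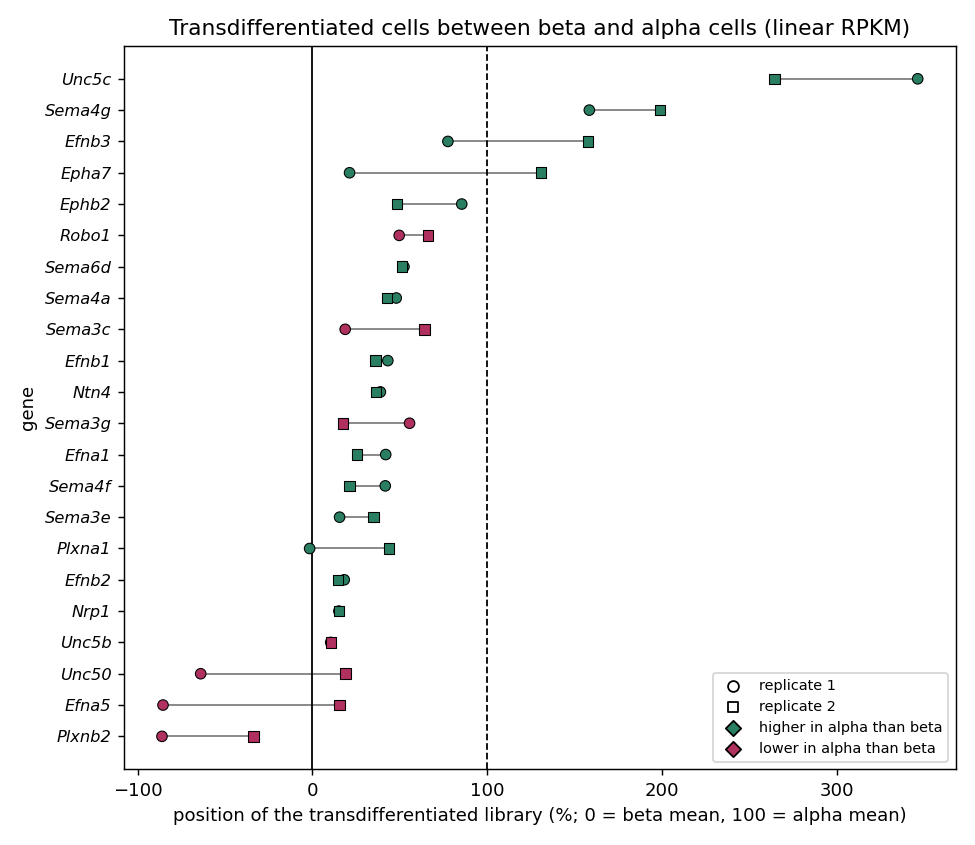
Place of each transdifferentiated library (circle, replicate 1; square, replicate 2) between the beta mean (0%) and the alpha mean (100%) on linear RPKM, for the 22 genes called between alpha and beta cells; green genes were higher and red genes lower in alpha cells. Most points lie between the lines, Unc5c and Sema4g lie to the right of the alpha mean, and both points of Plxnb2 lie to the left of the beta mean.

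Other genes of the pathway were taken from a list of 69 co-receptors, adaptors and effectors that act beside or below these receptors, of which 60 were tested. Against beta cells 5 rose and 2 fell (53 did not pass), and limma voom also called 3 of those that rose and neither of those that fell. Against alpha cells 8 rose and 9 fell, of which limma voom called 6 and 4. Between alpha and beta cells 13 were higher and 11 lower, and limma voom called all 24. The shares over all genes were 8.15% higher and 2.72% lower against beta cells, 20.6% and 7.01% against alpha cells, and 16% and 23.5% between alpha and beta cells. Against beta cells the list's counts are near these shares and show nothing particular to it. Pak3, a kinase activated by Rac and Cdc42, averaged 14.4 RPKM in transdifferentiated, 34.8 RPKM in alpha and 8.31 RPKM in beta cells, and passed limma in the 3 comparisons (log2 fold changes of 0.83 against beta, -1.29 against alpha and 2.11 between alpha and beta cells; adjusted p = 0.0374, 0.00332 and 0.000152). Srgap3 and Srgap2 encode GTPase activating proteins of Slit and Robo signalling. Srgap3 averaged 0.514 RPKM in transdifferentiated, 4.73 RPKM in alpha and 0.257 RPKM in beta cells (-2.40 against alpha cells, limma adjusted p = 0.00183), and Srgap2 averaged 1.43, 4.34 and 0.800 RPKM in these groups (-1.35, adjusted p = 0.00268).

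The other genes with large changes were cell surface proteins and cytoskeletal effectors. Limk2, a kinase that acts on cofilin, averaged 15.3 RPKM in transdifferentiated, 14.1 RPKM in alpha and 8.22 RPKM in beta cells (log2 fold change against beta cells 0.85, limma adjusted p = 0.0207). Ablim3, which encodes an actin binding protein, averaged 0.530, 1.80 and 0.0535 RPKM in the same groups (0.93 against beta cells, adjusted p = 0.0376). Flrt1 and Nrcam, which encode cell adhesion proteins that pair with Unc5 receptors or with semaphorin receptors, fell against beta cells by 0.80 and 0.84 on the log2 scale (limma adjusted p = 0.0344 and 0.0369, and 0.0999 and 0.114 by limma voom). Between alpha and beta cells Flrt1 had a log2 fold change of -1.96 (limma adjusted p = 0.000154), with 2.43 ± 0.133 RPKM in transdifferentiated (n = 2), 0.805 ± 0.118 RPKM in alpha and 4.62 ± 0.588 RPKM in beta cells (SD, n = 3 each). Chl1, an adhesion protein of the L1 family, and Dpysl5, a collapsin response mediator, fell against alpha cells by 1.83 and 1.36 on the log2 scale (limma adjusted p = 0.0109 and 0.0133), and neither passed limma voom (0.154 and 0.0584).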

How the data were processed

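The deposited table holds RPKM values made by the authors, 1 column per library. The submitters' processing notes name STAR 2.5, featureCounts and edgeR 3.14.0, and the build GRCm38.p4; the sources used here do not give the annotation or the strand setting. Per the labels' protocols the TruSeq RNA kit v2 was used, which does not mark strand; 3 of the 39 genes share over 5% of their exon length with another gene (Epha1, Plxna1, Sema4c). Of 46959 entries, 4 with repeated names were left out, and 27 named as dates were kept.

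Reads were recovered as whole multiples of the value of 1 read (within 0.01 of a read), with exon lengths from GENCODE M21 for 19908 of 25349 expressed genes matched by symbol (78.5%) and lengths solved from the steps for 6878 more; the library sizes implied by the steps were at most 1.0002 times their sums. Library pairs of a group differed by more than counting noise (chi-square per degree of freedom of 3.49 to 35.4).

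The test was limma 3.58.1 (lmFit and trended eBayes; R 4.3.3). It ran on log2(RPKM + 0.5) of the 15228 genes that reached 0.5 RPKM in 2 or more of the 8 libraries, in 1 fit with terms for group and sex, and Benjamini-Hochberg adjustment over all genes; called means adjusted p under 0.05. Fold changes on this scale understate those of low genes. Tested on simulated data, this fit called too many unchanged genes in comparisons with the shallow transdifferentiated libraries. Requiring limma voom on recovered reads as well lowered that number, so both are given. The simulation gave all genes and libraries the same spread beyond counting noise, so its numbers of false calls need not hold for the real libraries. SD is over libraries, SE is of the log2 fold change.

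Values are given for every gene called against alpha or beta cells by transdifferentiated cells, the 25 largest changes between alpha and beta cells (22 were called) and the most abundant gene of each family, and, for the pathway list, from the 5 largest changes of each comparison. Members and lists were chosen with earlier results of these data known. Alternatives (19 for most genes; 18 where a gene failed the stricter filter) changed pseudocount, filter, scaling, terms, samples or test, or left out each library; 3 more, chosen after seeing the data, are given as counts of calls.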

Additional observations from a re-analysis of the deposited data

How the results depend on the processing

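Titles give no replicate number shared between cell groups, but sex and letter b together sort the 8 libraries into 4 pairs of different groups. Over 15228 genes, the deviations of paired libraries from their group means correlated at -0.03, 0.11, 0.14 and 0.37, so the pairing was not taken as given. With these pairs as a replicate block, chosen after seeing the data, limma called 9 genes against beta cells (6 of them among the 11), 12 against alpha cells (11 of the 16) and 22 between alpha and beta cells (21 of the 22). Averaging libraries of 1 title number, also chosen after seeing the data, gave 2, 13 and 19 called; that fit holds 6 libraries. Leaving out each library in turn gave 2 to 10 called genes against beta cells (11 with all libraries), 8 to 14 against alpha cells (16) and 15 to 23 between alpha and beta cells (22). Against beta cells the count was 2, 3 and 6 without beta replicates 3, 1 and 2, 5 and 7 without alpha replicates 2 and 3, and 7 and 6 without transdifferentiated replicates 1 and 2. Against alpha cells it was 8 without transdifferentiated replicate 1 and 9 without alpha replicate 3; these fits hold fewer samples. With only the groups compared in the fit, limma called 0 genes against beta cells (15 of the 39 at an unadjusted p under 0.05, 0 of all 15228 genes called; limma voom on all libraries called 9) and 10 against alpha cells. Against beta cells, 5 were called without a filter on low values and 7 with quantile normalization. Against alpha cells, limma voom called 9, and 8 were called by both limma and limma voom, a combination chosen after seeing the data. The causes of the last 4 were not tested. The title letter as a term gave 14, 13 and 24 called against beta, against alpha and between alpha and beta cells. No called gene changed direction under any alternative run. Depth limits the transdifferentiated libraries, where 13 and 9 of the 39 genes had fewer than 10 reads.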

Other observations

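Of the 33 symbols under the level, 8 reached 0.5 RPKM in 1 library and 25 in none. In 6 of the 8 that library was a transdifferentiated one. In replicate 1 these were Epha8 (0.852 RPKM, 5 reads), Sema6c (0.812 RPKM, 6 reads), Nrp2 (0.611 RPKM, 9 reads), Ephb4 (0.520 RPKM, 3 reads) and Sema3b (0.505 RPKM, 3 reads). In replicate 2 it was Ephb3 (0.513 RPKM, 7 reads). The part of read depth in these values was not tested. The other 2 of the 8 were Epha2 (0.653 RPKM in alpha replicate 2) and Plxnd1 (0.544 RPKM in beta replicate 2). Nrp2, the co-receptor for Sema3f, averaged 0.539 RPKM in transdifferentiated (9 and 12 reads), 0.194 RPKM in alpha and 0.210 RPKM in beta cells. Robo4, a receptor of endothelial cells, averaged 0.364 RPKM in transdifferentiated (2 and 3 reads), 0.0961 RPKM in alpha and 0.0582 RPKM in beta cells. The name rule also took in 3 antisense RNAs of Plxna4. Of these, Plxna4os1 and Plxna4os3 were, like the receptor gene Epha6, listed at 0 in all 8 libraries.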
